A study of Mus musculus with 12 samples.

Results

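The 42 genes described here are immediate early genes and targets of the transcription factor CREB, named in a list that was chosen with earlier results of these data known. A gene was represented by the probe set annotated to it alone, and where it had several, by whichever was brightest on average across the 12 arrays. All 42 had such a probe set, out of 22180 genes with a probe set of their own and 41345 probe sets in all. For 40 of them there was only 1 probe set, and the second probe sets of Dusp6 and Rgs2 were dim, with mean log2 intensities of 4.26 and 4.33.

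Total hippocampal RNA of single female Tg2576 mice was hybridized to Affymetrix Mouse Gene 2.0 ST arrays, 1 mouse an array. Tg2576 mice carry human APP, the amyloid precursor protein, with its Swedish familial mutation, driven by a hamster prion promoter. The study's methods name the line Tg2576, on a C57BL/6/SJL background, whereas the labels give the strain as B6.Cg-Tg(APPswe)E1-2Dbo/J. These descriptions differ, and which of them holds for these arrays is not settled. All 4 groups carried the transgene and were 16 to 18 months old, and no wild-type arrays were analysed here. For 4 weeks the mice received CM-695 (3 arrays), CM-414 (3 arrays), SAHA and tadalafil together (3 arrays) or vehicle (3 arrays). CM-695 inhibits histone deacetylase 6 and phosphodiesterase 9, and was injected intraperitoneally at 40 mg/kg, 6 times a week. CM-414 inhibits class I histone deacetylases, histone deacetylase 6 and phosphodiesterase 5. SAHA (vorinostat) is a histone deacetylase inhibitor and tadalafil a phosphodiesterase 5 inhibitor, and for neither of them nor for CM-414 do the sources used here give a dose. The vehicle was 10% DMSO and 10% Tween-20 in saline by the study's methods, and saline by the labels. The labels put fear conditioning and the Morris water maze in weeks 3 and 4 and the dissection 24 h after the end of treatment, whereas the methods count the 24 h from the final probe trial of the maze. The time between the last maze trial and dissection is therefore not settled for these arrays.

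Immediate early genes are switched on in neurons within minutes of synaptic activity, without new protein synthesis, and their transcripts are short-lived. Calcium and cyclic nucleotide signals reach them through CREB, which binds the cAMP response element (CRE), and through serum response factor, which binds the CArG box. Some encode transcription factors that start a second wave of genes, others act at the synapse, and others shut the signal down again. In the hippocampus they are widely read as marks of recent neuronal activity and several are required for lasting memory. The 42 genes were set in 7 classes by role.

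Values are log2 intensities, so a difference of 1 is a doubling of signal. Correlations between arrays lay between 0.978 and 0.991, and no 2 arrays held equal values. Along the leading axis of a principal component analysis, which held 23.6% of the variance, 3 arrays stood apart from the other 9. They were replicate 3 of CM-695, replicate 1 of SAHA and tadalafil, and replicate 2 of vehicle. The mean log2 intensity of 15 measured hippocampal neuron markers lay between 9.14 and 9.36 on all 12 arrays. It was 9.33 to 9.35 with CM-695 and 9.23 to 9.29 with CM-414. With SAHA and tadalafil it was 9.14 to 9.26, and with vehicle 9.18 to 9.36. That of 14 thalamus and habenula markers was 7.82 to 7.97 with CM-695, 7.86 to 7.92 with CM-414, 7.87 to 8.61 with SAHA and tadalafil, and 7.84 to 8.68 with vehicle. The arrays with the highest thalamic means were SAHA and tadalafil replicate 2 and vehicle replicates 1 and 3.

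The promoters of the genes that carry the CREB element show what the class name refers to. RefSeq windows of 300 bases (GRCm38.p6), 250 before each transcription start and 50 after it, were given for 30 of the 42 genes, in 41 windows. No window was given for Arc, Egr1, Egr3, Ier2, Dusp4, Nptx2, Klf10, Crem, Sik1, Vgf, Trib1 and Nrn1. A full CRE (TGACGTCA, read on both strands) stood in the windows of 5 of the 30 genes (16.7%), against 2.03% of all 27025 genes with windows. The short CRE (TGACG, both strands, counted also inside a full CRE) stood in 22 of 30 genes (73.3%), against 23.0% of all genes. The AP-1 site (TGANTCA) was found for 1 gene, Bdnf (3.33%), against 8.97% of all genes, and the CArG box for Egr2 and Dusp5 (6.67%), against 1.81%. Per window, the CRE stood in 12.2% of the members' windows and 1.79% of all windows, and the short CRE in 58.5% and 20.8%. The 5 stretches with a full CRE are shown because this element defines CREB binding, in the direction of transcription with the CRE in capitals. They lie at chr1:134079288-134079347 (Btg2, minus strand), chr17:26508582-26508641 (Dusp1, minus strand), chr13:75089753-75089812 (Pcsk1, plus strand), chr13:110394956-110395015 (Plk2, plus strand) and chr1:79440061-79440120 (Scg2, minus strand).
Btg2: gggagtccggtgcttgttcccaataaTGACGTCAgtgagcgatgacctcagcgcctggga
Dusp1: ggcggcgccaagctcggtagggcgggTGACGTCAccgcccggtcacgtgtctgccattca
Pcsk1: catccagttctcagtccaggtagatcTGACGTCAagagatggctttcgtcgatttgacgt
Plk2: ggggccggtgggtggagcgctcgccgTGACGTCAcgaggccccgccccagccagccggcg
Scg2: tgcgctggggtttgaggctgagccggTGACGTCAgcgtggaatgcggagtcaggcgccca
The CRE began 166 bases before the start of Btg2, 143 before Dusp1, 78 before Pcsk1, 62 before Plk2 and 68 before Scg2. None of these 5 genes had an unadjusted p under 0.05 in any comparison below.

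Fos, Fosb, Egr2 and Nr4a1, which had lower values in a treatment group, held the short CRE, while the windows of Ier5 and Gadd45b, which did as well, held none of the 4 motifs. With 22 of the 30 genes holding it, the short CRE also stood in genes with no unadjusted p under 0.05, such as Homer1, Nr4a2, Nr4a3 and Plk3. A link between motif and difference was not tested. The stretches of Egr2 and Fos are shown because these genes were called with CM-414, and that of Nr4a1, which was not called, because its unadjusted p was under 0.05 with both CM-414 and SAHA and tadalafil. This choice was made after their values were seen. Capitals mark the short CRE on either strand and, in Egr2, also the CArG box, which lies between its short CREs. All are on the plus strand, at chr10:67537739-67537839 (Egr2), chr12:85473750-85473850 (Fos) and chr15:101266751-101266831 (Nr4a1).
Egr2: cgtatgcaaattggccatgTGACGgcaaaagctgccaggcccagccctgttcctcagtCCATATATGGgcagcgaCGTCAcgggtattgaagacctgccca
Fos: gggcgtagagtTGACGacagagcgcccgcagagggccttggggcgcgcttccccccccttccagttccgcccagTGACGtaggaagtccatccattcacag
Nr4a1: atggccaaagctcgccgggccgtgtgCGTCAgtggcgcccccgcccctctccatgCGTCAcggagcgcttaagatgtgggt
In Fos the short CREs began 129 and 66 bases before the start, and in Nr4a1 those shown began 69 and 40 bases before it. A match is a description of letters, and binding was not measured.

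The treatment groups were set against vehicle to ask how gene expression differed with each treatment. This was done with limma, two-sided, over all probe sets with a log2 value above 4 on every array of the groups compared. All 42 genes passed that filter in each comparison. The comparisons with vehicle share the same 3 vehicle arrays. None of the 42 had an adjusted p under 0.05 (Benjamini-Hochberg) in any comparison, and the share of all probe sets that did was 0% for CM-695 against vehicle, for CM-414 against vehicle, for CM-695 against CM-414 and for any difference among the 4 groups, and 0.00284% for SAHA and tadalafil against vehicle. The calls below use the study's own threshold, an unadjusted p under 0.01. RNA of whole hippocampus cannot tell fewer cells of a type from less RNA per cell.

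With CM-695, none of the 42 genes passed this threshold. In limma 0 of 42 genes had an unadjusted p under 0.01, where 0.364% of all probe sets were called higher and 0.753% lower, and 0 of 42 had one under 0.05, against 2.05% higher and 3.03% lower. The groups did not overlap for Ier2, higher with CM-695 (background 5.28%), and for Ier5, lower with CM-695 (background 5.15%). Of the 42 differences 22 were positive and 20 negative, with a median log2 difference of 0.01, as over all probe sets (0.01). Without the arrays that stand apart, which left 2 arrays a group, 32 of 42 were negative, the median was -0.09, and Arc and Egr1 had an unadjusted p under 0.01, with 3.16% of all probe sets called.

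With CM-414, the transcription factor genes Egr2 and Fos were lower than with vehicle. The log2 difference was -0.51 for Egr2 and -0.41 for Fos, the 2 genes lower at an unadjusted p under 0.01, where the background was 0.921% lower and 1.53% higher. At an unadjusted p under 0.05, 7 genes were lower (Arc, Fos, Egr1, Egr2, Egr3, Nr4a1 and Ier5) and none higher, against 3.77% and 5.59% of all probe sets. For 8 genes every CM-414 array lay below every vehicle array (background 7.38%). Of the 42 differences 31 were negative, and their median was -0.09 against 0.00 over all probe sets, of which 51.2% were positive. Leaving out vehicle replicate 2 took the calls to 5 (Arc, Fos, Egr2, Ptgs2 and Inhba) and the median to -0.19, where 2.3% of all probe sets were called (816 of 35492). Leaving out any 1 CM-414 array, vehicle replicate 1 or vehicle replicate 3 took the calls to 0, where 448 to 752 probe sets were called. With all arrays 864 were called.

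With SAHA and tadalafil, Arc was the gene farthest below vehicle, with a log2 difference of -0.69. Arc, Gadd45b and Ier5 were lower at an unadjusted p under 0.01 and none was higher, where the background was 0.563% lower and 0.560% higher. At an unadjusted p under 0.05, 6 genes were lower (Fosb, Egr2 and Nr4a1 as well), against 2.89% of all probe sets, and none higher, against 2.34%. For 6 genes every treated array lay below every vehicle array (background 4.88%). Of the 42 differences 33 were negative, with a median of -0.14 against -0.01 over all probe sets. Without vehicle replicate 2 there were 6 calls (Arc, Gadd45b, Jun, Nr4a1, Dusp4 and Dusp6), where 1.35% of all probe sets were called (479 of 35410). Without SAHA and tadalafil replicate 3 there were also 6, where 305 of 35304 probe sets were called. Without vehicle replicate 3 there was 1, Arc, where 452 of 35312 were called. With all arrays 395 of 35199 were called.

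CM-695 and CM-414, which differ in the deacetylases and phosphodiesterases they inhibit, were set side by side, with no dose known for CM-414. Fos was higher with CM-695 by a log2 difference of 0.41 and was the only gene with an unadjusted p under 0.01 (background 0.410% higher). At an unadjusted p under 0.05, Fos, Fosl2 and Egr3 were higher with CM-695, against 2.31% of all probe sets. The groups did not overlap for 10 genes higher with CM-695 (background 6.45%) and for Atf3, lower with CM-695 (background 6.94%). Of the 42 differences 32 were positive, with a median of 0.08 against 0.00 over all probe sets. Without CM-695 replicate 3, which held the highest of the 12 values for 12 of the genes, Fos differed by 0.32 and its call was lost, as it was without CM-695 replicate 1 or any 1 CM-414 array.

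Over the 4 groups together, a moderated F test in limma gave an unadjusted p under 0.01 for Arc alone (adjusted p = 0.608), where 1.62% of probe sets were called. That call was lost on leaving out CM-414 replicate 2 or 3, any 1 SAHA and tadalafil array, or vehicle replicate 1 or 3. At an unadjusted p under 0.05 there were 6 of 42 genes (Arc, Fos, Egr2, Nr4a1, Ier5 and Gadd45b), against 7.53% of all probe sets.

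**Figure D1:**
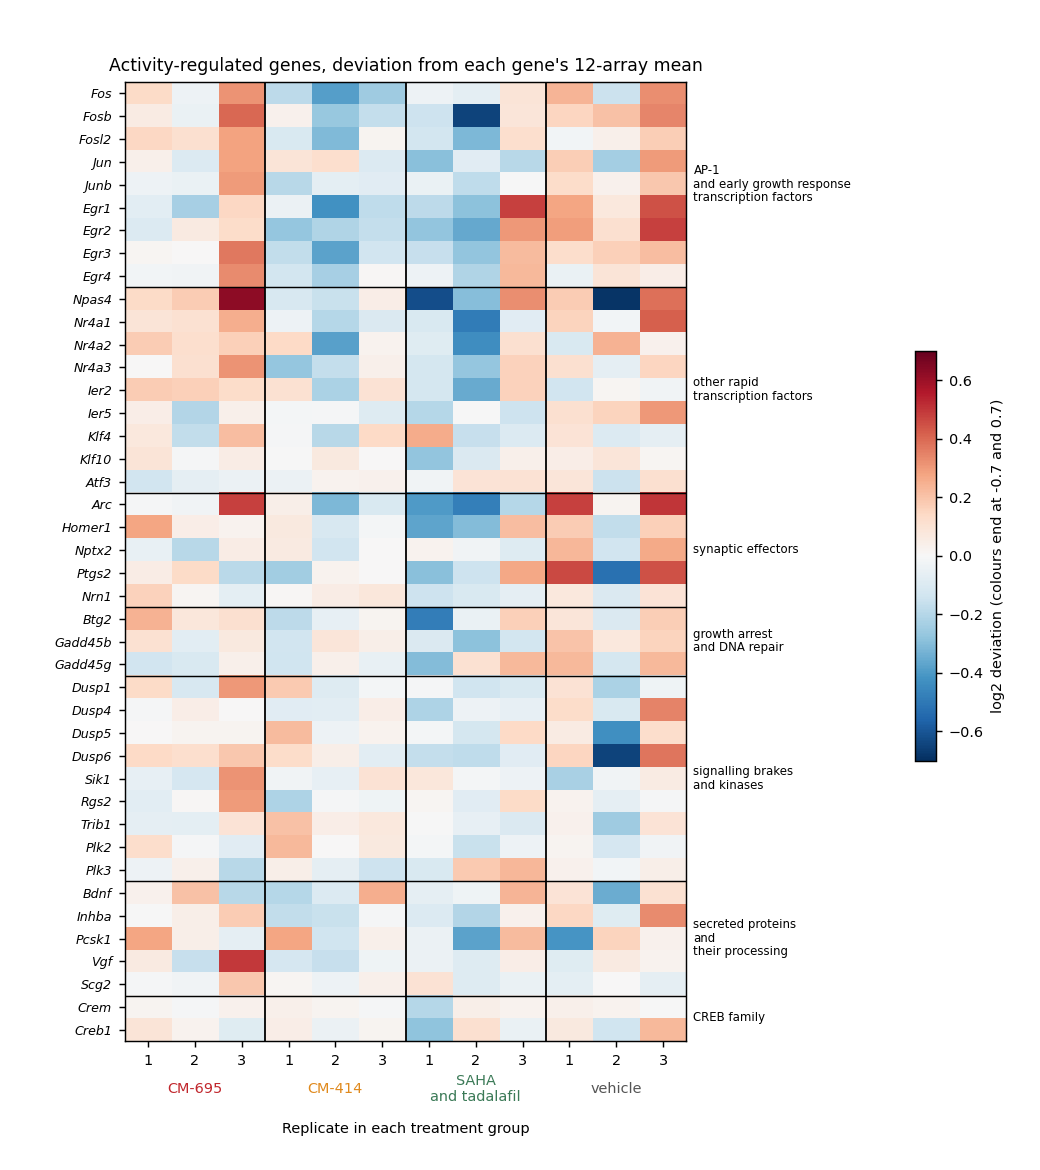
Deviation of each of the 42 genes (rows, by role) from its own mean over 12 arrays (columns, 3 a group), in log2 units from blue (below) to red (above). The upper rows are mostly blue with CM-414 and on SAHA and tadalafil replicates 1 and 2, and red on CM-695 replicate 3 and vehicle replicate 3, while vehicle replicate 2 is dark blue for Npas4, Ptgs2 and Dusp6.

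The AP-1 and early growth response factors, 9 zinc finger and leucine zipper proteins that lead the transcriptional response to activity, include Fos and Egr2, the genes called with CM-414. Relative to the 12-array means of its genes, the class averaged 0.02, -0.03 and 0.28 on the CM-695 arrays, -0.11, -0.24 and -0.12 on the CM-414 arrays, -0.14, -0.27 and 0.15 on the SAHA and tadalafil arrays, and 0.15, 0.04 and 0.28 on the vehicle arrays. The CM-414 arrays thus lay below all CM-695 and all vehicle arrays, while SAHA and tadalafil held 2 low arrays and 1 at the vehicle level. All 9 differences between CM-414 and vehicle were negative (median -0.37, against 0.00 over all probe sets), 2 of them at an unadjusted p under 0.01 (0.921% of all probe sets) and 4 at one under 0.05 (3.77%). Both calls under 0.01 were lost with the arrays centred on their medians and on leaving out any 1 CM-414 array. All 9 differences between SAHA and tadalafil and vehicle were also negative (median -0.24, against -0.01 over all probe sets), none at an unadjusted p under 0.01 and 2 at one under 0.05 (2.89%). With CM-695, 3 differences from vehicle were positive and 6 negative (median -0.04). Between CM-695 and CM-414 all 9 were positive (median 0.25), 1 of them at an unadjusted p under 0.01 (0.410%). No test of the class was run. Without the arrays that stand apart, the median was -0.23 with CM-695, -0.38 with CM-414 and -0.27 with SAHA and tadalafil, each against vehicle.

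Fos encodes the inducible partner of Jun in the AP-1 dimer. Its log2 intensity was 7.11, 6.94 and 7.29 with CM-695, 6.79, 6.59 and 6.73 with CM-414, 6.94, 6.91 and 7.07 with SAHA and tadalafil, and 7.22, 6.83 and 7.30 with vehicle. All CM-414 arrays lay below all CM-695 and all vehicle arrays, although vehicle replicate 2, at 6.83, was close to CM-414 replicate 1, at 6.79. The log2 difference between CM-414 and vehicle was -0.41 ± 0.13 (SE, n = 3 each; limma adjusted p = 0.406). With CM-695 the difference from vehicle was 0.00 ± 0.16, with a 95% interval of -0.37 to 0.37. With SAHA and tadalafil it was -0.14 ± 0.13, and these arrays fell inside the vehicle range.

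Fosb, whose truncated form accumulates on repeated activity, had the second widest range of the 42 genes, 1.05. It measured 7.68, 7.59 and 8.03 with CM-695, 7.66, 7.36 and 7.46 with CM-414, 7.48, 6.98 and 7.72 with SAHA and tadalafil, and 7.78, 7.84 and 7.97 with vehicle. Every CM-414 and every SAHA and tadalafil array lay below every vehicle array, with log2 differences of -0.37 ± 0.18 (limma adjusted p = 0.562) and -0.47 ± 0.18 (limma adjusted p = 0.923).

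Junb, an AP-1 partner that can restrain Jun, measured 8.16, 8.15 and 8.49 with CM-695, 8.001, 8.13 and 8.11 with CM-414, 8.15, 8.02 and 8.19 with SAHA and tadalafil, and 8.32, 8.22 and 8.39 with vehicle. The CM-414 arrays and the SAHA and tadalafil arrays stood wholly below vehicle, by -0.23 ± 0.11 (limma adjusted p = 0.536) and -0.19 ± 0.11 (limma adjusted p = 0.975). Fosl2 differed by 0.31 ± 0.12 between CM-695 and CM-414 (limma adjusted p = 0.856), with all CM-695 arrays above all CM-414 arrays. Jun had its largest difference from vehicle with SAHA and tadalafil, -0.27 ± 0.14.

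The early growth response genes encode zinc finger factors, of which Egr1 (Zif268) is required for late phases of synaptic potentiation. Egr1 measured 8.81, 8.65 and 9.03 with CM-695, 8.85, 8.46 and 8.71 with CM-414, 8.70, 8.60 and 9.36 with SAHA and tadalafil, and 9.16, 8.96 and 9.33 with vehicle. The CM-414 arrays lay below all vehicle arrays (-0.48 ± 0.19, limma adjusted p = 0.497), while SAHA and tadalafil held both low values and the highest of all 12. With CM-695 the difference from vehicle was -0.32 ± 0.14 (limma adjusted p = 0.982), and without the arrays that stand apart it was -0.52 ± 0.12 (limma adjusted p = 0.294).

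Egr2 measured 7.18, 7.34 and 7.41 with CM-695, 7.01, 7.07 and 7.11 with CM-414, 7.003, 6.92 and 7.58 with SAHA and tadalafil, and 7.57, 7.39 and 7.75 with vehicle. The CM-414 arrays were close together and lay below all CM-695 and all vehicle arrays. The log2 difference between CM-414 and vehicle was -0.51 ± 0.16 (limma adjusted p = 0.404). With SAHA and tadalafil it was -0.40 ± 0.16 (limma adjusted p = 0.932), resting on replicates 1 and 2, since replicate 3 lay inside the vehicle range. With CM-695 it was -0.26 ± 0.13 (limma adjusted p = 0.992). Egr3 was lower with CM-414 than with vehicle by -0.40 ± 0.14 (limma adjusted p = 0.449) and higher with CM-695 than with CM-414 by 0.35 ± 0.14 (limma adjusted p = 0.856), with no overlap of the groups in either case. Egr4 had no unadjusted p under 0.05, and its differences from vehicle lay between -0.15 and 0.06.

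**Figure D2:**
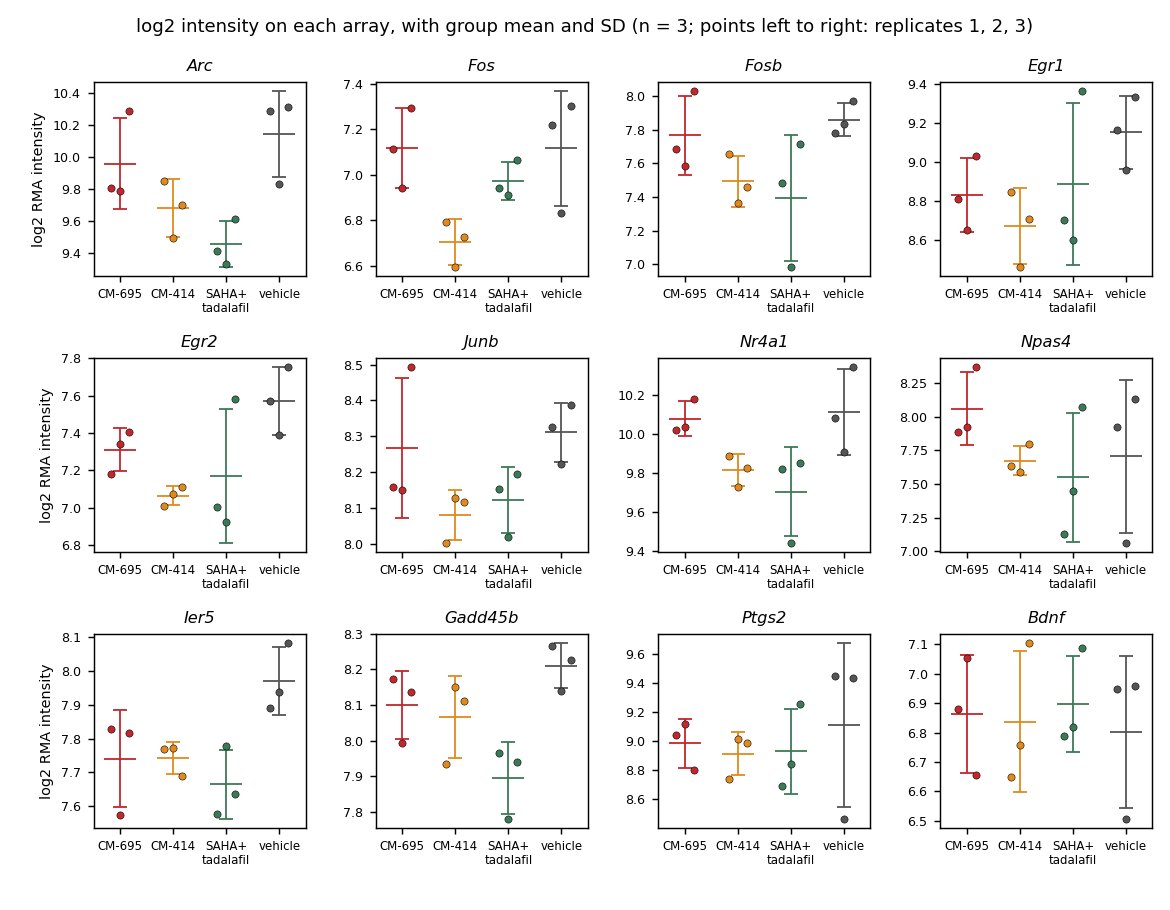
log2 intensity of 12 of the genes on every array (points, replicates 1 to 3 from left to right in each group), with the group mean and SD (n = 3). The CM-414 points of Fos, Egr1 and Egr2 lie below all vehicle points, the SAHA and tadalafil points of Arc lie between 9.33 and 9.61 and below all vehicle points, and the vehicle points of Npas4 and Ptgs2 are spread widest.

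The other rapid transcription factors were 9 genes. Their median log2 difference from vehicle was 0.06 with CM-695, -0.03 with CM-414 and -0.16 with SAHA and tadalafil, with 5, 1 and 2 of the 9 differences positive. Of the 9, Ier5 alone had an unadjusted p under 0.01, with SAHA and tadalafil.

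Nr4a1 (Nur77), an orphan nuclear receptor induced by CREB, measured 10.02, 10.03 and 10.18 with CM-695, 9.89, 9.73 and 9.82 with CM-414, 9.82, 9.44 and 9.85 with SAHA and tadalafil, and 10.08, 9.91 and 10.35 with vehicle. Both the CM-414 and the SAHA and tadalafil arrays lay below all vehicle arrays. The log2 differences were -0.30 ± 0.13 with CM-414 (limma adjusted p = 0.528) and -0.41 ± 0.13 with SAHA and tadalafil (limma adjusted p = 0.898), against -0.03 ± 0.13 with CM-695. Its relatives Nr4a2 and Nr4a3 had no unadjusted p under 0.05, with differences from vehicle between -0.20 and 0.10. Nr4a2 was highest of the 12 arrays on vehicle replicate 2, where many other genes were low.

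Npas4, a neuron-specific factor induced by calcium entry that adjusts inhibitory synapses, had the widest range of the 42, 1.31. It measured 7.88, 7.92 and 8.37 with CM-695, 7.63, 7.59 and 7.79 with CM-414, 7.13, 7.45 and 8.07 with SAHA and tadalafil, and 7.92, 7.06 and 8.13 with vehicle. The vehicle group held most of that range, and the 95% interval of the CM-695 difference from vehicle ran from -0.31 to 1.02. All CM-695 arrays lay above all CM-414 arrays (0.39 ± 0.28, limma adjusted p = 0.893).

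Ier5, an immediate early gene linked to the heat shock factor HSF1, measured 7.83, 7.57 and 7.82 with CM-695, 7.77, 7.77 and 7.69 with CM-414, 7.58, 7.78 and 7.64 with SAHA and tadalafil, and 7.89, 7.94 and 8.08 with vehicle. Every treated array lay below every vehicle array. The log2 difference was -0.23 ± 0.11 with CM-695 (limma adjusted p = 0.992), -0.23 ± 0.10 with CM-414 (limma adjusted p = 0.514) and -0.31 ± 0.10 with SAHA and tadalafil (limma adjusted p = 0.862). Without the arrays that stand apart the last was -0.28 ± 0.12 (limma adjusted p = 0.722), no longer with an unadjusted p under 0.01, and the call was also lost on leaving out SAHA and tadalafil replicate 1 or 3 or vehicle replicate 2 or 3. Ier2 was higher with CM-695 than with vehicle by 0.21 ± 0.09 (limma adjusted p = 0.982). Klf4, Klf10 and Atf3 had differences from vehicle between -0.16 and 0.06, none with an unadjusted p under 0.05.

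The synaptic effectors were led by Arc, whose protein drives removal of AMPA receptors from synapses and whose mRNA travels to active dendrites. Arc measured 9.80, 9.79 and 10.29 with CM-695, 9.85, 9.49 and 9.70 with CM-414, 9.41, 9.33 and 9.61 with SAHA and tadalafil, and 10.29, 9.83 and 10.31 with vehicle. The SAHA and tadalafil arrays lay below every vehicle and every CM-695 array, and vehicle replicate 2 was 0.46 below the other vehicle arrays. The log2 difference between SAHA and tadalafil and vehicle was -0.69 ± 0.17, a ratio of 0.619 (95% interval of the log2 difference -1.06 to -0.32, limma adjusted p = 0.783). With CM-414 it was -0.46 ± 0.17 (limma adjusted p = 0.460), with 1 CM-414 array just above the lowest vehicle array. With CM-695 it was -0.18 ± 0.19 (limma adjusted p = 0.992), and without the arrays that stand apart, which removes the highest CM-695 and the lowest vehicle array, -0.51 ± 0.09 (limma adjusted p = 0.254). The SAHA and tadalafil difference had an unadjusted p under 0.01 in all 17 alternatives run, from -0.85 to -0.61.

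Homer1, whose short activity-induced form uncouples glutamate receptors from their scaffold, measured 9.46, 9.23 and 9.21 with CM-695, 9.26, 9.07 and 9.17 with CM-414, 8.81, 8.88 and 9.40 with SAHA and tadalafil, and 9.36, 9.01 and 9.35 with vehicle. SAHA and tadalafil replicates 1 and 2 were the lowest of the 12 and replicate 3 the second highest, and the difference from vehicle was -0.21 ± 0.16. The array does not separate the short from the long form. Ptgs2 (cyclooxygenase 2) measured 9.04, 9.12 and 8.80 with CM-695, 8.74, 9.01 and 8.99 with CM-414, 8.69, 8.84 and 9.26 with SAHA and tadalafil, and 9.45, 8.46 and 9.43 with vehicle. Vehicle replicate 2 was 0.97 below the other vehicle arrays, which gave the group both the highest and the lowest of the 12 values. With it the differences from vehicle were -0.13 ± 0.27 with CM-695, -0.20 ± 0.24 with CM-414 and -0.18 ± 0.24 with SAHA and tadalafil. Without it they were -0.46 ± 0.13 with CM-695 (limma adjusted p = 0.40), -0.53 ± 0.17 with CM-414 (limma adjusted p = 0.432) and -0.51 ± 0.17 with SAHA and tadalafil (limma adjusted p = 0.741), each with an unadjusted p under 0.05 and that of CM-414 under 0.01. Nptx2, a secreted pentraxin that clusters AMPA receptors, and Nrn1 (neuritin) differed from vehicle by between -0.19 and 0.02, with no unadjusted p under 0.05. Without vehicle replicate 2, Nptx2 differed from vehicle by -0.31 ± 0.11 with CM-695, -0.27 ± 0.10 with CM-414 and -0.28 ± 0.10 with SAHA and tadalafil, each with an unadjusted p under 0.05. Nrn1 then differed by -0.05, -0.04 and -0.19, with none under 0.05.

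**Figure D3:**
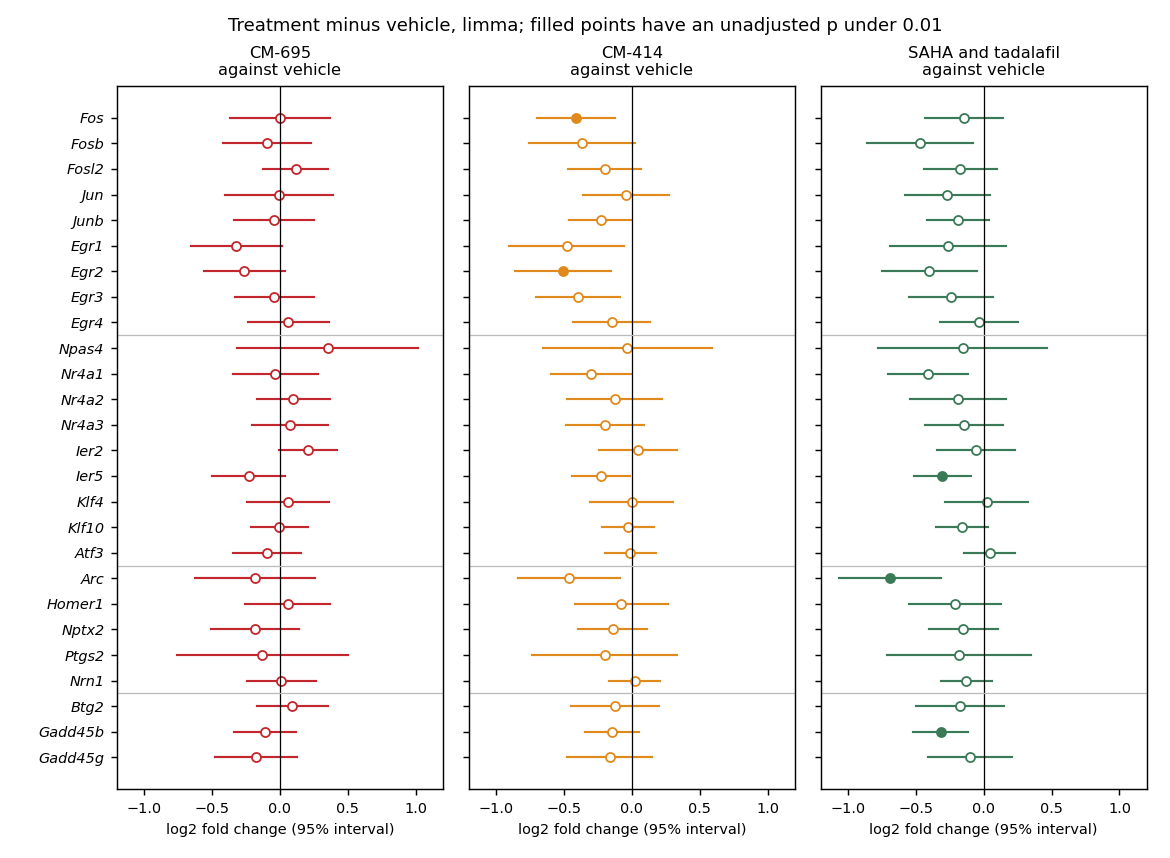
log2 difference between each treatment and vehicle for 26 genes of 4 classes, with 95% intervals from limma, the filled points having an unadjusted p under 0.01. CM-695 has no filled point, CM-414 has Fos and Egr2, and SAHA and tadalafil has Ier5, Arc and Gadd45b, all to the left of 0.

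Of the growth arrest and DNA repair genes, Gadd45b, which takes part in activity-induced DNA demethylation, measured 8.17, 7.99 and 8.14 with CM-695, 7.93, 8.15 and 8.11 with CM-414, 7.97, 7.78 and 7.94 with SAHA and tadalafil, and 8.27, 8.14 and 8.23 with vehicle. The SAHA and tadalafil arrays lay below all vehicle arrays (-0.32 ± 0.09, limma adjusted p = 0.861), with an unadjusted p under 0.01. That call was lost without SAHA and tadalafil replicate 2, where the difference was -0.26, and without vehicle replicate 1 or 3. With CM-414 the difference was -0.14 ± 0.09 and with CM-695 -0.11 ± 0.10. Gadd45g and Btg2, an antiproliferative cofactor, had differences from vehicle between -0.18 and 0.09 and no unadjusted p under 0.05.

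The signalling brakes and kinases held no called gene with all arrays in the fit. Without vehicle replicate 2 they held 2 with SAHA and tadalafil, Dusp4 and Dusp6, where 1.35% of all probe sets were called. The class includes Dusp1, Dusp4, Dusp5 and Dusp6, phosphatases that switch off MAP kinases, Sik1, a kinase that restrains the CREB coactivators, Rgs2, a brake on G protein signals, Trib1, and the polo-like kinases Plk2 and Plk3. With all arrays, no member of the class had an unadjusted p under 0.05 in any comparison. Their median difference from vehicle was 0.09 with CM-695, 0.07 with CM-414 and -0.01 with SAHA and tadalafil, and single differences lay between -0.23 and 0.19. Without vehicle replicate 2 these medians were -0.08, -0.02 and -0.09, so that the CM-695 and CM-414 medians changed sign. Dusp4 then differed by -0.34 ± 0.10 between SAHA and tadalafil and vehicle (limma adjusted p = 0.686), and by -0.23 ± 0.11 with all arrays. Dusp6 measured 9.54, 9.52 and 9.59 with CM-695, 9.53, 9.44 and 9.33 with CM-414, 9.24, 9.22 and 9.32 with SAHA and tadalafil, and 9.55, 8.75 and 9.78 with vehicle. Vehicle replicate 2 alone made its range 1.02, since it lay 0.79 below the other vehicle arrays. Without that array the difference between SAHA and tadalafil and vehicle was -0.40 ± 0.10 (limma adjusted p = 0.575), against -0.10 ± 0.20 with it. The difference was -0.11 ± 0.11 without it and 0.19 ± 0.25 with it for CM-695, and -0.23 ± 0.10 without it and 0.07 ± 0.20 with it for CM-414.

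The secreted proteins and their processing enzyme showed no unadjusted p under 0.05 with all arrays in the fit. Bdnf, the neurotrophin that CREB drives from several promoters, measured 6.88, 7.05 and 6.65 with CM-695, 6.65, 6.76 and 7.11 with CM-414, 6.79, 6.82 and 7.09 with SAHA and tadalafil, and 6.95, 6.505 and 6.96 with vehicle. All groups overlapped, and the 95% intervals of the differences from vehicle were -0.33 to 0.45 with CM-695, -0.33 to 0.39 with CM-414 and -0.27 to 0.45 with SAHA and tadalafil. Inhba, a subunit of activin, differed from vehicle by -0.24 ± 0.11 with CM-414 (limma adjusted p = 0.544) and by -0.22 ± 0.11 with SAHA and tadalafil. Without vehicle replicate 2 these differences were -0.35 ± 0.11 (limma adjusted p = 0.424), with an unadjusted p under 0.01, and -0.33 ± 0.11 (limma adjusted p = 0.742). Pcsk1, a convertase of prohormones, and the granins Vgf and Scg2 had differences from vehicle between -0.10 and 0.16.

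The CREB family had no difference from vehicle beyond -0.12, and the 95% intervals of its differences with CM-695 lay between -0.33 and 0.24. Creb1, the constitutive activator, measured 8.64, 8.57 and 8.47 with CM-695, 8.60, 8.51 and 8.57 with CM-414, 8.27, 8.66 and 8.51 with SAHA and tadalafil, and 8.62, 8.41 and 8.78 with vehicle. Crem, which also yields the inducible repressor ICER, measured 6.35, 6.32 and 6.36 with CM-695, 6.36, 6.35 and 6.32 with CM-414, 6.12, 6.36 and 6.35 with SAHA and tadalafil, and 6.36, 6.35 and 6.32 with vehicle. It had the narrowest range of the 42 genes, 0.24, with SAHA and tadalafil replicate 1 at 6.12 and the other 11 arrays between 6.32 and 6.36. CREB itself is regulated by phosphorylation, which arrays do not read.

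The arrays of a group differed from each other in these genes more than in most. The within-group SD of the 42 genes had a median of 0.165, against 0.125 over 15534 probe sets with 1 gene and a mean log2 above 6. It exceeded the median of those probe sets for 31 of the 42, and their 90th percentile for 8, namely Npas4, Ptgs2, Dusp6, Egr1, Pcsk1, Fosb, Arc and Bdnf. The extremes fell on few arrays. CM-695 replicate 3 and vehicle replicate 3 each held the highest of the 12 values for 12 genes, and SAHA and tadalafil replicate 2 held the lowest for 12, replicate 1 for 9 and vehicle replicate 2 for 8. Within the vehicle group, replicate 2 was the lowest array for 29 of the 42 genes, at least 0.5 below both others for Ptgs2, Npas4 and Dusp6, and the highest for 7.

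**Figure D4:**
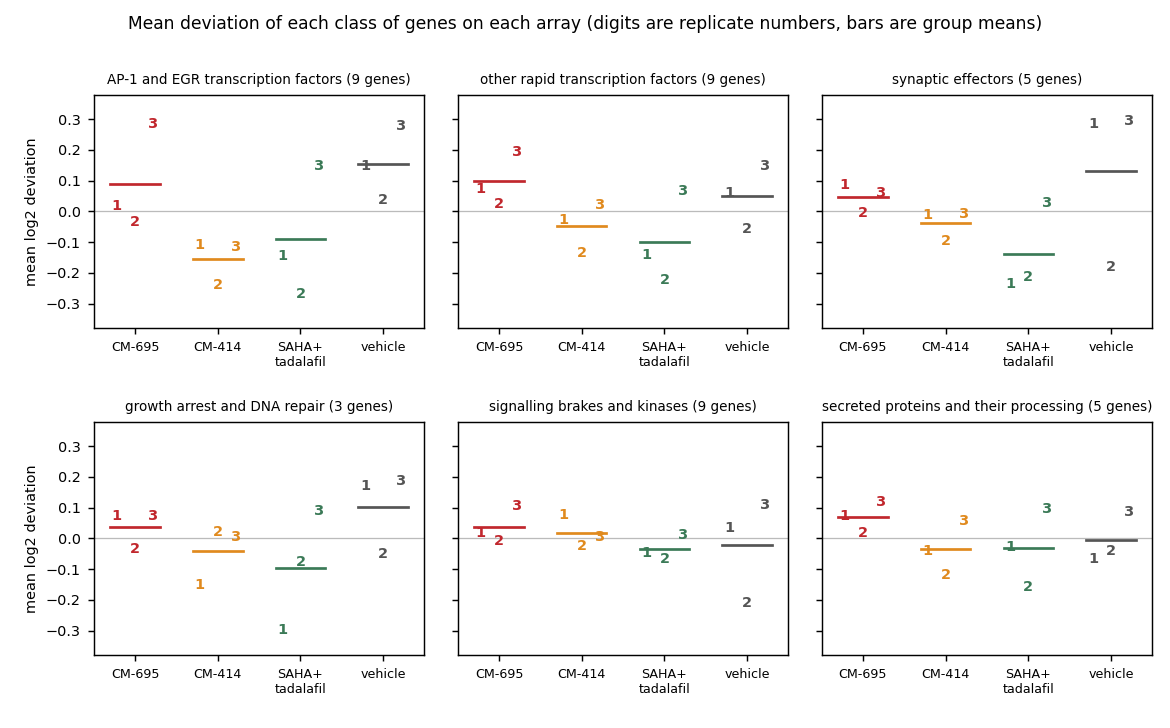
Mean log2 deviation of 6 classes of genes from their 12-array means on each array (digits are replicate numbers, bars are group means). In the AP-1 and early growth response class the CM-414 arrays lie between -0.24 and -0.11 and the vehicle arrays between 0.04 and 0.28, while in the synaptic and signalling classes vehicle replicate 2 stands at -0.18 and -0.21, far below the other vehicle arrays.

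Of 40 measured genes of that kind outside the 42, 1 was higher (Tac1, the precursor of substance P, 0.54 ± 0.15) and 1 lower (Cdkn1a, a cell cycle inhibitor, -0.33 ± 0.09) at an unadjusted p under 0.01 with CM-695, where 0.364% of all probe sets were higher and 0.753% lower. Sgk1, a kinase induced by both activity and glucocorticoids, was the only one called with CM-414 (1.02 ± 0.14, adjusted p = 0.167 in limma) and with SAHA and tadalafil (0.53 ± 0.14, adjusted p = 0.783 in limma), where 1.53% and 0.560% of all probe sets were higher. The median difference of the 40 from vehicle was 0.06 with CM-695, 0.09 with CM-414 and -0.03 with SAHA and tadalafil. Of 35 measured genes of the CREB and serum response factor machinery, 1 was called, Prkacb, a catalytic subunit of protein kinase A. It was higher with CM-414 (0.38 ± 0.12, adjusted p = 0.404 in limma), where 1.53% of all probe sets were higher. The medians of the 35 were 0.02 with CM-695, 0.06 with CM-414 and -0.02 with SAHA and tadalafil.

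Genes induced by glucocorticoids also differed among the groups, most of them with higher values in both groups that held called members. The mean log2 intensity of 15 such genes was 8.68 to 8.73 with CM-695, 9.02 to 9.26 with CM-414, 8.78 to 8.997 with SAHA and tadalafil, and 8.62 to 8.76 with vehicle. With CM-414 all 15 differences from vehicle were positive (median 0.35), 5 of them at an unadjusted p under 0.01 (Sgk1, Sult1a1, Pdk4, Plin4 and Fkbp5), where the background was 1.53%. With SAHA and tadalafil 13 of 15 differences from vehicle were positive (median 0.17), 1 of them at an unadjusted p under 0.01 (Sgk1, background 0.560%) and 4 at one under 0.05 (background 2.34%), and every array mean lay above every vehicle mean. With CM-695 9 of 15 were positive (median 0.03), and Cdkn1a was lower at an unadjusted p under 0.01 (background 0.753%). Between CM-695 and CM-414 all 15 differences were negative (median -0.31), 6 of them at an unadjusted p under 0.01 (background 0.702%). Sgk1, Cdkn1a and Per1 stand in both this list and that of other activity-regulated genes. None of the 15 is among the 42, and their part in the differences above was not tested.

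Markers of other tissue and of single cell types also varied among the groups. Differences from vehicle were negative for 13 of 14 thalamus and habenula markers with CM-695 (median -0.32), 12 with CM-414 (median -0.38) and 11 with SAHA and tadalafil (median -0.13), none at an unadjusted p under 0.01. They were negative for 8 of 9 microglial markers with CM-695 (median -0.14), all 9 with CM-414 (median -0.21) and 7 with SAHA and tadalafil (median -0.04). The mean log2 intensity of these 9 was 7.95 to 8.18 with CM-695, 8.06 to 8.18 with CM-414, 8.15 to 8.33 with SAHA and tadalafil, and 8.21 to 8.49 with vehicle, so the CM-695 and CM-414 arrays lay below all vehicle arrays. Of 14 vessel markers 9 differences were negative with CM-695 (median -0.05), 9 with CM-414 (median -0.09) and 4 with SAHA and tadalafil (median 0.10). Of 7 oligodendrocyte markers 3 were negative with CM-695 (median 0.01), 5 with CM-414 (median -0.16) and 2 with SAHA and tadalafil (median 0.08). Of 15 hippocampal neuron markers 4 were negative with CM-695 (median 0.07), 8 with CM-414 (median -0.08) and 10 with SAHA and tadalafil (median -0.08). Between CM-695 and CM-414, 11 of these 15 differences were positive (median 0.08). SAHA and tadalafil replicate 2, with a thalamic mean of 8.61, had the lowest Arc value of all. Vehicle replicates 1 and 3, which had the higher thalamic means in their group, also had its higher values of Arc and Fos. These are single arrays and 2 genes, and no relation was tested over the 42 genes or the 12 arrays. Single genes of these lists were called at an unadjusted p under 0.01, with limma adjusted p between 0.386 and 0.885. The share of all probe sets called higher was 1.53% with CM-414 and 0.560% with SAHA and tadalafil. The share called lower was 0.753% with CM-695 and 0.921% with CM-414. The vessel markers Slco1a4 (0.48 ± 0.13 with CM-414, 0.43 ± 0.13 with SAHA and tadalafil) and Acta2 (0.63 ± 0.20 with SAHA and tadalafil) were higher, and the microglial C1qb (-0.74 ± 0.20 with CM-695) and the oligodendrocyte gene Opalin (-0.82 ± 0.26 with CM-414) were lower than with vehicle. No gene of the hippocampal neuron, choroid plexus, blood or astrocyte lists was called, and only 2 of 6 blood genes were measured. The mean of 9 choroid plexus markers was 7.33 to 8.47 with CM-695, highest on replicate 3, and 7.01 to 8.12 with CM-414. It was 7.22 to 8.48 with SAHA and tadalafil, highest on replicate 3, and 7.34 to 8.37 with vehicle. Differences of these 9 from vehicle were positive for 2 with CM-695, 2 with CM-414 and all 9 with SAHA and tadalafil (median 0.11). The part of these markers in the differences of the 42 genes was not tested.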

How the data were processed

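RNA of 12 hippocampi was hybridized to Mouse Gene 2.0 ST arrays, 3 a group. The authors used RMA for background correction and normalization (no version is stated), and what they deposited is a log2 intensity per probe set and array, 41345 probe sets in all. Genes were named from the platform annotation (23521 probe sets with 1 symbol, 1820 with several, 16004 not listed). The 42 genes, their classes and the other lists were chosen with earlier results of these data known. Probe sets above a log2 value of 4 on all arrays of the groups compared were tested with limma 3.58.1 in R 4.3.3 (two-sided, Benjamini-Hochberg over all tested). CM-695 against vehicle used 6 arrays, as in the study, and the other comparisons all 12. Each array is a separate mouse by the labels' term biological replicate. Arrays have no read depth, and 3 a group limit the precision.

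Values on every array are given for genes with an unadjusted p under 0.01, for the 6 with the widest range, and for Arc, Fos, Egr1, Junb, Npas4, Nr4a1, Bdnf, Homer1, Crem and Creb1. Other lists name up to 4 genes at an unadjusted p under 0.01, except the glucocorticoid list, of which all 5 called with CM-414 are named. Alternatives changed the filter, the normalization, the gene summary, the replicate block, the prior, the weights and the arrays. The fits were tested on simulated data. Promoters are from RefSeq. Plots used matplotlib 3.10.9 (Python 3.11.15).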

Additional observations from a re-analysis of the deposited data

How the results depend on the processing

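No difference of a gene called at an unadjusted p under 0.01 changed sign in any alternative run. The called genes were chosen by their p in these same data. Changing the filter, the replicate block or the prior left their differences as they were, so no change of sign was possible there. Of 124 pairs of a called gene with an alternative, 82 kept an unadjusted p under 0.01 and 42 did not. Among the 124 pairs, 22 were of Arc in the F test, which has no sign. Below, counts are of the 42 genes with an unadjusted p under 0.01, with the number of all probe sets called in the same fits. In the main fits 393 probe sets were called with CM-695, 864 with CM-414 and 395 with SAHA and tadalafil, each against vehicle. There were 393 between CM-695 and CM-414 and 563 over the 4 groups, with 34785 to 35326 probe sets tested. Repeating the quantile normalization left 1 with CM-414 against vehicle (891 probe sets). Centring each array on its median left 0 there (804 probe sets), 0 between CM-695 and CM-414 (388) and 0 over the 4 groups (543). The replicate numbers did not pair the arrays, as correlations of same-numbered deviations lay between -0.346 and 0.161. With a replicate block there were 5 with CM-414 against vehicle, 3 between CM-695 and CM-414 and 3 over the 4 groups. Fewer probe sets were then called than in the main fits, 675, 377 and 462. Without the arrays that stand apart there were 2 with CM-695 (median log2 difference -0.087), 4 with CM-414 (median -0.185), 5 with SAHA and tadalafil, each against vehicle, 0 between CM-695 and CM-414 and 2 over the 4 groups. The probe sets called rose as well, to 1125 with CM-695, 1319 with CM-414 and 579 with SAHA and tadalafil. They rose to 528 between CM-695 and CM-414 and to 1193 over the 4 groups. Array weights gave 1 with CM-695 (1097 probe sets) and 2 over the 4 groups (1233). Fitting the 6 arrays alone gave 1 with SAHA and tadalafil (288). Leaving out each array in turn gave 0 to 5 with CM-414 (median -0.185 to -0.054), 1 to 6 with SAHA and tadalafil (median -0.214 to -0.063), medians of -0.078 to 0.066 with CM-695, 0 to 1 between CM-695 and CM-414, and 0 to 3 over the 4 groups. The probe sets called then numbered 448 to 816 with CM-414 and 305 to 479 with SAHA and tadalafil. They numbered 268 to 517 between CM-695 and CM-414 and 398 to 814 over the 4 groups. The causes of the changes between settings, among them the smaller number of arrays in some fits, were not tested.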
